A study of Mus musculus with 7 samples.

Results

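Reg3b, Reg3g, Reg1 and Reg3a encode small secreted lectins of the Reg family, and their RNA was followed here in sorted mouse intestinal crypt cells. The 4 genes are the listed Reg lectins with a symbol in the deposited tables, and all 4 of the 37310 genes of the table that bear these symbols entered the test. Reg3b and Reg3g were chosen by their high values in single libraries of these data, so their levels and fold changes are given as a description, with no test. Reg1 and Reg3a were listed with them as members of the family. Their Ensembl identifiers in the files are ENSMUSG00000071356.4 for Reg3b, ENSMUSG00000030017.1 for Reg3g, ENSMUSG00000059654.4 for Reg1 and ENSMUSG00000079516.1 for Reg3a.

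The libraries came from BmicreERT2, Rosa26RFP mice, in which an inducible Cre recombinase under the Bmi1 gene switches on a red fluorescent reporter. Such a reporter stays on in the progeny of a marked cell, so sorted cells need not express Bmi1 themselves. Mice received their diet from weaning and were 3 months old at collection. Crypt cells with strong red fluorescence that carried the epithelial protein Epcam and lacked the leukocyte protein CD45 were sorted and sequenced in bulk. The diets were NWD2 (2 libraries), NWD1 (3 libraries) and AIN76A (2 libraries). The last is a purified rodent diet that serves as the control. NWD1 is its Western-style counterpart, rich in fat and poor in methyl donors, vitamin D3 and calcium, and in NWD2 the vitamin D3 and calcium of that formula are restored. The comparisons ask what each Western-style diet changed against AIN76A, and what restoring vitamin D3 and calcium changed against NWD1. No label ties a library to an animal of its own, and p-values therefore measure only the spread between these samples, which may be technical.

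Reg3 lectins bind sugars of bacterial cell walls and help to keep bacteria away from the gut epithelium. Their transcription in the small intestine is known to depend on bacterial colonisation, through the Toll-like receptor adaptor MyD88 and through interleukin-22, which acts on epithelial cells by way of the transcription factor STAT3. Reg1 was first described in regenerating pancreatic islets and is also produced in the crypts of the small intestine.

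Total gene counts ranged from 14034315 to 77959407 per library, and NWD1 replicate 3 was the shallowest. In the deposited TPM table, 1 column bears the heading of an NWD2 replicate 3, a title that no sample has, and the sample titled NWD1 replicate 3 is without a column. The diet of that library is therefore less certain, and fold changes that involve NWD1 are given with and without it. All mice were labelled male except that of NWD1 replicate 2. Both NWD2 libraries and NWD1 replicate 3 carried the i5 sequencing index N504, and the other libraries carried N503. Bmi1 itself was low throughout, between 2.12 and 5.25 CPM. Epcam, a sort marker, was lowest in NWD2 replicate 2, at 225 CPM, and lay between 509.955 and 1338.0 CPM in the other libraries. The sort marker Ptprc, which encodes CD45, lay between 1.17 and 5.75 CPM.

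The 4 genes lie together on mouse chromosome 6, in the order Reg3b, Reg3a, Reg1 and Reg3g, with Reg3d between Reg3b and Reg3a and with Reg2 between Reg3a and Reg1. The 250 bases before the gene start are shown for Reg3b and Reg3g, the pair whose RNA moved together across the libraries, and for Reg1, whose RNA did not follow them. The sequences are those of RefSeq on GRCm38.p6, a later build than the mm9 named in the submitters' processing notes, and run 5′ to 3′ on the strand of the gene. Capitals mark matches, on either strand, to 3 motifs: TTCNNNGAA, the palindrome that STAT factors are known to bind, the same palindrome with 4 free bases between TTC and GAA, and TATAAA, the TATA box.
Reg3b, chr6:78370635-78370884, plus strand: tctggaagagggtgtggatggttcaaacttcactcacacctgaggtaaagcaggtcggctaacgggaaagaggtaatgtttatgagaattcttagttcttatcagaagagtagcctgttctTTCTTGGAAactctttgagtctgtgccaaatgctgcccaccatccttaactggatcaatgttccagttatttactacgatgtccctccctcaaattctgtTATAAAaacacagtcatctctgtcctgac
Reg3g, chr6:78468875-78469124, minus strand: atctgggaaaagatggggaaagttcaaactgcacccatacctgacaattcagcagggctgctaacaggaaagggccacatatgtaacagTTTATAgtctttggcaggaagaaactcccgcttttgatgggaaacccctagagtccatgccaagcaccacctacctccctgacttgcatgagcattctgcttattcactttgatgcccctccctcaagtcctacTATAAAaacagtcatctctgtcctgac
Reg1, chr6:78425733-78425982, plus strand: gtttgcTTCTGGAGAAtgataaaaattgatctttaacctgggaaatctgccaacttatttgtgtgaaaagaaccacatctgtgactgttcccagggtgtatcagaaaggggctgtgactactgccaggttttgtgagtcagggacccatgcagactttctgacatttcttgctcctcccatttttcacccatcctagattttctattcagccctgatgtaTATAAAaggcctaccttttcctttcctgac

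The Reg3b window held 1 match to TTCNNNGAA, TTCTTGGAA, whose first base lay 129 bases before the start. The Reg3g window held no match to either STAT spacing, and the Reg1 window held 1 match to the wider spacing, TTCTGGAGAA, with its first base 244 bases before the start. TATAAA began 29 bases before the start in Reg3b, 27 in Reg3g and 30 in Reg1, and Reg3g had a second match on the other strand at 161 bases. The window of Reg3a, chr6:78380459-78380708 on the plus strand, matched none of the 3 motifs. The stretch ATGCCAAGCAC, which Reg3g and Reg3a share, began 105 bases before the start in Reg3g and 57 in Reg3a. The Reg3a window thus ended short of the position that holds TATAAA near the Reg3g start, and bases beyond it were not searched. Of 32851 mouse promoter windows of the same length, 7.02% held TTCNNNGAA, 5.85% held the wider spacing and 12.4% held TATAAA. A match is a match of letters and not a measured binding site. The Reg3b and Reg3g windows were identical at 70.0% of 247 aligned bases, and both ended in the same 20 bases, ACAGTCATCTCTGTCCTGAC. The reference transcripts of Reg3b and Reg3g, 783 and 771 bases long, were identical at 74.7% of aligned bases, and no pair of the 4 genes shared a stretch of 50 bases. The longest run that Reg3b and Reg3g shared was 35 bases.

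Reg3b encodes a lectin known in mice to act against Gram-negative bacteria. It had 23409.5 and 1072 CPM in NWD2 replicates 1 and 2. It had 1038, 881 and 10368 CPM in NWD1 replicates 1, 2 and 3, against 1657 and 1396 CPM in AIN76A replicates 1 and 2 (CPM are counts brought to a common library total, with totals scaled by the TMM method). The gene was high in 1 of the 2 NWD2 libraries and in 1 of the 3 NWD1 libraries, and the remaining NWD2 and NWD1 libraries all lay below both AIN76A libraries. The diets thus overlapped with the labels as given, but the diet of NWD1 replicate 3 is less certain. Read as NWD2, that library would leave NWD2 overlapping AIN76A. NWD2 would then lie above NWD1, at 1072 CPM or more against 1038 and 881 CPM, with only a narrow gap between the nearest libraries. How many of all genes would split this way was not counted. No fit was made with that reading. Within a diet, the highest library exceeded the lowest 21.8-fold in NWD2 and 11.8-fold in NWD1, against 1.19-fold in AIN76A.

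Reg3g encodes a lectin known in mice to kill Gram-positive bacteria. It had 15031 and 1285 CPM in NWD2 replicates 1 and 2, 869.7, 749 and 6215 CPM in NWD1 replicates 1, 2 and 3, against 2105 and 1632 CPM in AIN76A replicates 1 and 2. The same libraries were high as for Reg3b, and the order of all 7 libraries was the same for both genes. The highest exceeded the lowest 11.7-fold in NWD2 and 8.30-fold in NWD1, against 1.29-fold in AIN76A. Across the 7 libraries, which both genes share, the log2(CPM + 1) values of Reg3b and Reg3g had a Pearson r of 0.98 and a Spearman rho of 1. Without NWD2 replicate 1 and NWD1 replicate 3, the libraries farthest from the median of Reg3b, r was 0.96 over 5 libraries. In these bulk samples, more cells that express a gene and more of its RNA per cell cannot be told apart.

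**Figure D1:**
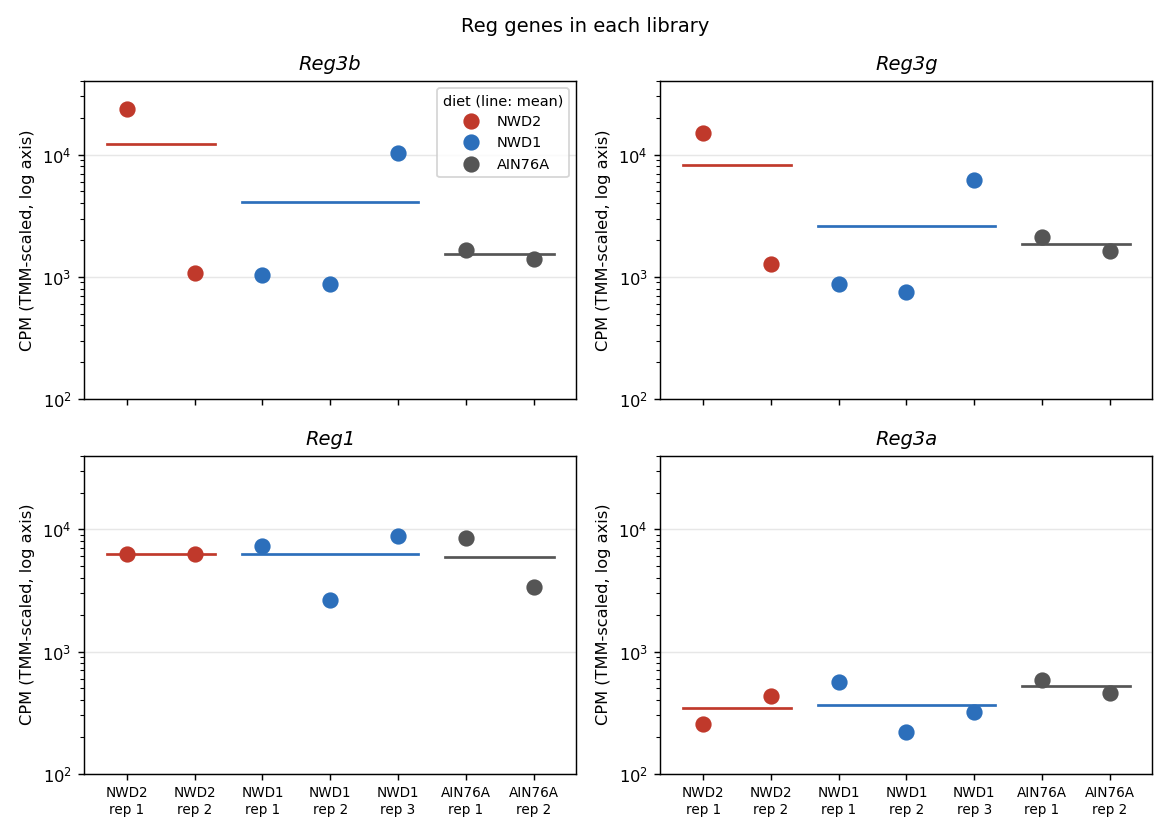
TMM-scaled CPM (log axis) of the 4 Reg lectin genes in each of the 7 libraries, coloured by diet, with a line at the mean of each diet. Reg3b and Reg3g stand at 23409.5 and 15031 CPM in NWD2 replicate 1 and at 10368 and 6215 CPM in NWD1 replicate 3, while Reg1 and Reg3a span 3.36-fold and 2.69-fold over all libraries.

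The deposited TPM, which are scaled for gene length and allow genes to be compared, were at hand for the 6 libraries other than NWD1 replicate 3. Reg3b had the highest TPM of all genes in NWD2 replicate 1, at 58777.5 TPM, with Reg3g second at 37008 TPM. In NWD2 replicate 2 the TPM of Reg3b ranked 59 and that of Reg3g ranked 46. By TPM, Reg3b ranked 43 in both NWD1 libraries with a column, and 42 and 30 in AIN76A replicates 1 and 2. Reg3g ranked 54 and 60 in the NWD1 libraries, and 24 and 25 in the AIN76A libraries, again by TPM. Both genes were thus among the most abundant transcripts of these cells in every library with TPM values, also where they were not high.

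In NWD2 replicate 1, Reg3b took 2.39% of all gene counts (95% exact Clopper-Pearson interval 2.385% to 2.392%) and Reg3g took 1.53%. In NWD1 replicate 3 the shares were 1.11% (interval 1.107% to 1.118%) for Reg3b and 0.667% for Reg3g. In the other 5 libraries Reg3b took between 0.0855% and 0.158% and Reg3g between 0.0791% and 0.200%. Such intervals cover counting error only. The 4 genes together held 4.59% and 0.724% of the counts in NWD2 replicates 1 and 2. They held 1.06%, 0.473% and 2.76% in NWD1 replicates 1, 2 and 3, and 1.23% and 0.717% in AIN76A replicates 1 and 2. Depth did not order the shares: NWD2 replicate 1 had 71331627 counts and NWD1 replicate 3 had 14034315.

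**Figure D2:**
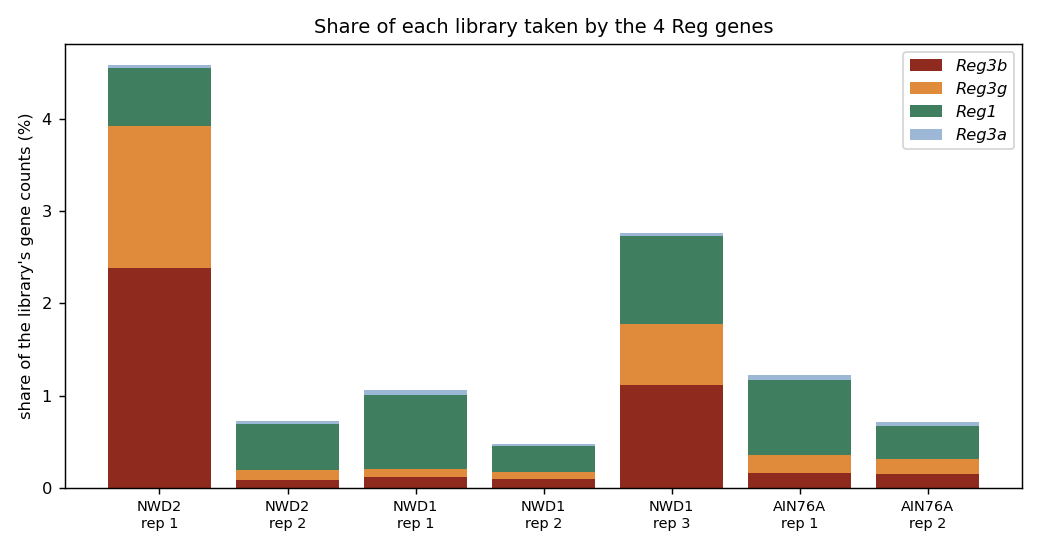
Share of each library's gene counts (%) taken by Reg3b, Reg3g, Reg1 and Reg3a, stacked, in each of the 7 libraries. The stack reaches 4.59% in NWD2 replicate 1 and 2.76% in NWD1 replicate 3, and lies between 0.473% and 1.23% in the others.

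As diet means, Reg3b had 12241 ± 15795 CPM in NWD2 (SD, n = 2), 4096 ± 5433 CPM in NWD1 (SD, n = 3) and 1527 ± 185 CPM in AIN76A (SD, n = 2). The means of Reg3g were 8158 ± 9719.7 CPM in NWD2, 2611 ± 3121 CPM in NWD1 and 1868 ± 335 CPM in AIN76A. In both Western-style diets the SD of each gene was larger than its mean. The fitted log2 fold changes of NWD2 over AIN76A were 3.00 (SE 1.52) for Reg3b and 2.13 (SE 1.197) for Reg3g. Those of NWD1 over AIN76A were 1.42 (SE 1.35) and 0.48 (SE 1.06), and those of NWD2 over NWD1 were 1.58 (SE 1.27) and 1.64 (SE 1.04). The comparisons against AIN76A share the AIN76A libraries.

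The direction of these differences turned with single libraries. Without NWD2 replicate 1, the log2 fold change of NWD2 over AIN76A was -0.55 for Reg3b and -0.58 for Reg3g, and that of NWD2 over NWD1 was -1.97 and -1.06. Without NWD1 replicate 3, that of NWD1 over AIN76A was -0.67 for Reg3b and -1.21 for Reg3g, and that of NWD2 over NWD1 was 3.67 and 3.33. Without NWD2 replicate 2, the values of NWD2 over AIN76A were 3.94 for Reg3b and 3.01 for Reg3g, and those of NWD2 over NWD1 were 2.53 and 2.54. With any of the other 4 libraries left out, both genes had positive values in all 3 comparisons.

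**Figure D3:**
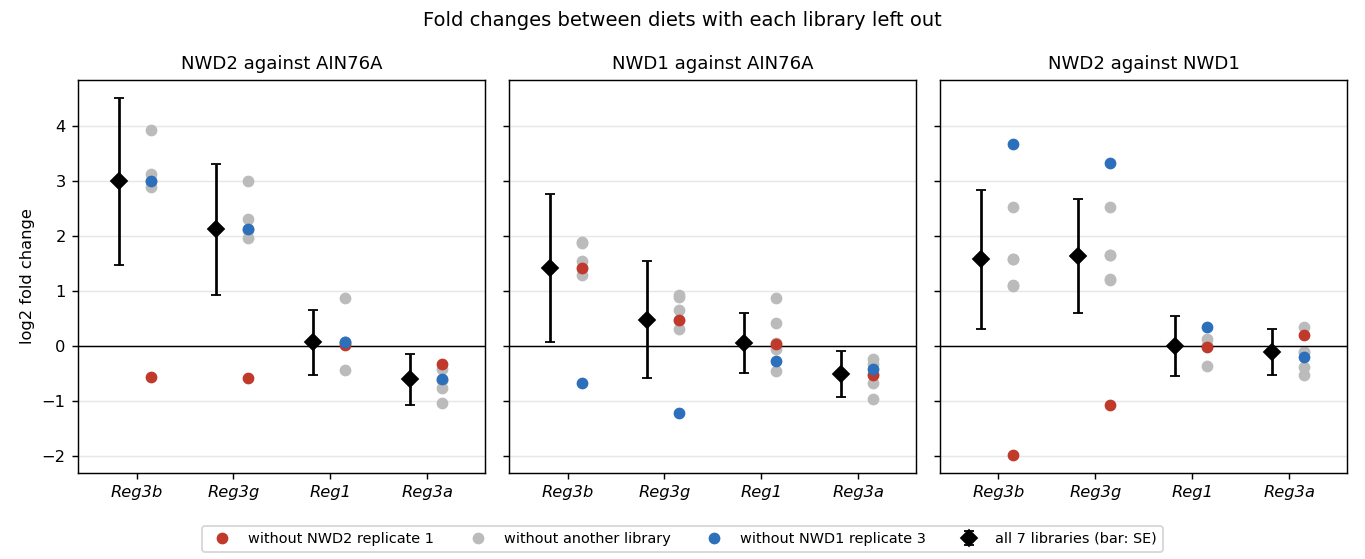
Log2 fold changes of the 4 genes in the 3 diet comparisons, with all 7 libraries (black diamonds, bars are the SE) and with each library left out in turn (dots). The dots of Reg3b and Reg3g fall below 0 without NWD2 replicate 1 in both NWD2 comparisons and without NWD1 replicate 3 in the comparison of NWD1 with AIN76A, at -0.55 to -1.97 and at -0.67 to -1.21.

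Within an i5 index the picture was as follows. Among the N504 libraries, Reg3b had 23409.5 and 1072 CPM in NWD2 and 10368 CPM in the 1 NWD1 library, which placed the NWD1 library between the NWD2 libraries. Among the N503 libraries, the 2 NWD1 libraries had 1038 and 881 CPM of Reg3b, against 1657 and 1396 CPM in the AIN76A libraries. Reg3g had 15031 and 1285 CPM in the NWD2 libraries with N504 and 6215 CPM in the NWD1 library. Of Reg3g the NWD1 libraries with N503 had 869.7 and 749 CPM, against 2105 and 1632 CPM in the AIN76A libraries. With N503 the NWD1 libraries thus lay below the AIN76A libraries for both genes, which rose and fell together over the libraries. How many of all genes tested split this way was not counted, and NWD1 replicate 2 was the only female library. With i5 index as a term in the fit, the log2 fold change of NWD2 over AIN76A was -0.43 for Reg3b and -0.81 for Reg3g, that of NWD1 over AIN76A was -0.67 and -1.21, and that of NWD2 over NWD1 was 0.24 and 0.39. No library of NWD2 carried N503 and none of AIN76A carried N504, so index and diet cannot be told apart between those diets except through NWD1 replicate 3.

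Reg1 was abundant and showed no such pattern. It had 6249 and 6295 CPM in NWD2 replicates 1 and 2, 7258.5, 2632 and 8835 CPM in NWD1 replicates 1, 2 and 3, against 8545 and 3395 CPM in AIN76A replicates 1 and 2. The NWD2 libraries lay inside the range of both other diets. The lowest library was the only female one, NWD1 replicate 2, as it was for Reg3b, Reg3g and Reg3a. Diet means were 6272 ± 32.2 CPM in NWD2 (SD, n = 2), 6242 ± 3224 CPM in NWD1 (SD, n = 3) and 5970.0 ± 3642 CPM in AIN76A (SD, n = 2). The edgeR quasi-likelihood test gave log2 fold changes of 0.07 for NWD2 over AIN76A (SE 0.60, adjusted p = 0.996), 0.06 for NWD1 over AIN76A (SE 0.54, adjusted p = 0.988) and 0.01 for NWD2 over NWD1 (SE 0.54, adjusted p = 0.998). These values are smaller than their errors, and their sign turned under several alternatives.

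Reg3a, a further Reg3 lectin whose human namesake kills Gram-positive bacteria, was the lowest of the 4 by TPM. It had 254 and 432 CPM in NWD2 replicates 1 and 2, 566, 218 and 320.2 CPM in NWD1 replicates 1, 2 and 3, against 585 and 456 CPM in AIN76A replicates 1 and 2. Both NWD2 libraries lay below both AIN76A libraries, while NWD1 overlapped both diets. How often other genes split this way was not counted. Means were 343 ± 126 CPM in NWD2 (SD, n = 2), 368 ± 179 CPM in NWD1 (SD, n = 3) and 521 ± 91.5 CPM in AIN76A (SD, n = 2). The edgeR quasi-likelihood log2 fold changes were -0.60 for NWD2 over AIN76A (SE 0.46, adjusted p = 0.996), -0.50 for NWD1 over AIN76A (SE 0.42, adjusted p = 0.878) and -0.10 for NWD2 over NWD1 (SE 0.42, adjusted p = 0.944). The first 2 kept a negative sign in all 18 alternatives, between -1.03 and -0.31 and between -0.95 and -0.23.

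Without NWD1 replicate 3, Reg1 had log2 fold changes of 0.07 for NWD2 over AIN76A, -0.27 for NWD1 over AIN76A and 0.34 for NWD2 over NWD1, and Reg3a had -0.60, -0.41 and -0.19. Neither Reg1 nor Reg3a passed an adjusted p of 0.05 in any of the 3 comparisons by the edgeR quasi-likelihood test. The background was 0% of the 14626 genes tested in each comparison, so the absence of a call is no property of these genes. At an unadjusted p under 0.05 the test counted 560, 500 and 1154 genes for NWD2 over AIN76A, NWD1 over AIN76A and NWD2 over NWD1, and DESeq2 called 52 (0.356%), 1 (0.00684%) and 180 (1.28%). With no filter on low counts, edgeR called 190 (0.776%), 85 (0.347%) and 384 (1.57%) of 24477 genes in the same order of comparisons. Neither Reg1 nor Reg3a was among the genes called in either setting, and calls on Reg3b and Reg3g are not read here, since they would rest on the values that chose them.

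The order of the 4 genes differed between libraries. By TPM, Reg1 was first in 5 of the 6 libraries, at 13249.7 TPM in NWD2 replicate 2, 18805 and 7039.8 TPM in NWD1 replicates 1 and 2, and 17644 and 8816 TPM in AIN76A replicates 1 and 2. In NWD2 replicate 1, Reg1 had 15407 TPM and stood behind Reg3b and Reg3g. Reg3a was last in all 6 libraries, between 537 and 1354 TPM. Reg3g exceeded Reg3b in NWD2 replicate 2, at 2701 against 2298 TPM, and in both AIN76A libraries, at 4341 against 3485 TPM and at 4232 against 3693 TPM. Reg3b exceeded Reg3g in NWD1 replicates 1 and 2, at 2739 against 2250.2 TPM and at 2400.3 against 2000.1 TPM.

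The balance between the genes also differed between libraries. The ratios that follow are of counts, not scaled for length, and are compared between libraries only. The ratio of Reg3b to Reg3g counts was 1.56 and 0.834 in NWD2 replicates 1 and 2. It was 1.19, 1.18 and 1.67 in NWD1 replicates 1, 2 and 3, and 0.787 and 0.856 in AIN76A replicates 1 and 2. The ratio was highest in the 2 libraries where both genes were high, and all 3 NWD1 libraries exceeded both AIN76A libraries. How often ratios of other gene pairs split these diets was not counted. The ratio also uses the values by which Reg3b and Reg3g were chosen, and it is a description. The ratio of Reg1 to Reg3a counts was 24.6 and 14.6 in NWD2, 12.8, 12.1 and 27.6 in NWD1, and 14.6 and 7.44 in AIN76A, each in the order of replicate numbers. It too was highest in NWD2 replicate 1 and NWD1 replicate 3. The ratio of Reg3b to Reg1 counts was 3.75 and 0.170 in NWD2, 0.143, 0.335 and 1.17 in NWD1, and 0.194 and 0.411 in AIN76A. Across the 7 libraries, which all 4 genes share, Reg3b had a Pearson r of 0.41 with Reg1 and of -0.43 with Reg3a on the log2(CPM + 1) scale, and Reg1 and Reg3a had 0.47. Without NWD2 replicate 1 and NWD1 replicate 3, r of Reg3b with Reg3a was 0.69 over 5 libraries, so the negative value rested on those libraries.

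The other Reg genes did not share the pattern of Reg3b and Reg3g. Reg4, a Reg lectin on chromosome 3 known as a marker of secretory cells, had 167 and 376 CPM in NWD2 replicates 1 and 2, 663, 866 and 549.8 CPM in NWD1 replicates 1, 2 and 3, against 770.1 and 807 CPM in AIN76A replicates 1 and 2. Both NWD2 libraries lay below all libraries of the other diets, and the share of all genes that lie so was not counted. The log2 fold change was -1.54 for NWD2 over AIN76A (SE 0.42, edgeR adjusted p = 0.886) and -1.35 for NWD2 over NWD1 (SE 0.39, adjusted p = 0.504), and neither passed the test. Reg3d and Reg2, which lie between the members on chromosome 6, were near the floor. Reg3d had 1.003 and 1.34 CPM in NWD2, 1.95, 1.19 and 1.73 CPM in NWD1, against 2.56 and 1.79 CPM in AIN76A. Reg2 had 1 to 19 counts per library. Neighbouring genes of the chromosome 6 cluster thus differed widely in level.

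The receptors of interleukin-22, interleukin-6 and interleukin-17, listed together with the JAK-STAT3 relay that interleukin-22 and interleukin-6 use, had no called gene among the 13 tested of 14. Over all genes tested, 0% were called in each comparison, so this absence is no property of the list. Of the 13, 7 had a positive log2 fold change for NWD2 over AIN76A (median 0.11), 12 for NWD1 over AIN76A (median 0.37) and 5 for NWD2 over NWD1 (median -0.22). Over all genes tested the positive shares were 47.4%, 50.6% and 53.5%, with medians of -0.03, 0.01 and 0.05. The ligand-binding subunit Il22ra1 had 10.8 and 35.3 CPM in NWD2, 6.56, 16.2 and 19.7 CPM in NWD1, against 6.90 and 15.4 CPM in AIN76A. Stat3 had 130.1 and 181 CPM in NWD2, 84.7, 129 and 174 CPM in NWD1, against 79.0 and 118 CPM in AIN76A. Neither gene was highest in NWD2 replicate 1, where Reg3b and Reg3g peaked. Il10rb, the other subunit of the interleukin-22 receptor, had 151 and 111 CPM in NWD2, 117, 126 and 124 CPM in NWD1, against 122 and 122 CPM in AIN76A, and was highest in NWD2 replicate 1. The largest changes of the list were those of Il6ra, the interleukin-6 receptor, at -2.23 for NWD2 over AIN76A (SE 0.83, edgeR adjusted p = 0.996) and -3.12 for NWD2 over NWD1 (SE 0.80, adjusted p = 0.492), at levels below 1 CPM in every library. Of the 13 genes, 9 had a positive r with Reg3b across the libraries.

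The cytokines that induce Reg3 genes are made mostly by immune cells, which the sort was set to leave out. Il22, Il17a and Ifng had 0 counts in all 7 libraries. The 9 cytokines listed summed to 0.151 and 0.113 CPM in NWD2, 0.103, 0.0288 and 0.133 CPM in NWD1, against 0.0720 and 1.33 CPM in AIN76A. None of the 9 entered the test, and the highest sum was that of AIN76A replicate 2, where Tnf had 1.18 CPM.

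The Toll-like and NOD receptor pathway had no called gene among 18 tested of 20, beside 0% of all genes tested. Positive log2 fold changes numbered 12 for NWD2 over AIN76A (median 0.19), 12 for NWD1 over AIN76A (median 0.14) and 11 for NWD2 over NWD1 (median 0.17). Of the 18 genes, 13 had a positive r with Reg3b (median 0.14). Myd88, the adaptor of most Toll-like receptors, had 46.4 and 47.0 CPM in NWD2, 41.8, 37.4 and 39.4 CPM in NWD1, against 46.5 and 46.5 CPM in AIN76A. Tirap, an adaptor that brings MyD88 to Toll-like receptors, had 13.5 and 9.56 CPM in NWD2, 7.86, 7.80 and 12.3 CPM in NWD1, against 10.8 and 11.2 CPM in AIN76A. With an r of 0.84, it was highest in NWD2 replicate 1 and NWD1 replicate 3. Tlr5, the flagellin receptor, had the largest change of the list in both NWD2 comparisons, at 1.74 for NWD2 over AIN76A (SE 1.47, edgeR adjusted p = 0.996) and 2.03 for NWD2 over NWD1 (SE 1.39, adjusted p = 0.747), at no more than 0.273 CPM.

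Other epithelial genes that respond to microbes were measured as 15 tested of 23 in the table, and none was called, beside 0% of all genes tested. Positive log2 fold changes numbered 8 for NWD2 over AIN76A (median 0.17), 6 for NWD1 over AIN76A (median -0.04) and 10 for NWD2 over NWD1 (median 0.23). Against Reg3b across the 7 libraries, 14 of the 15 had a positive Pearson r on the log2(CPM + 1) scale, with a median of 0.44, beside 7104 of 14625 among all other genes tested, with a median of -0.01. These correlations share the libraries and are a description. Tifa, which relays a bacterial sugar signal to NF-kB, came closest with an r of 0.89, but its Spearman rho was 0.46. It had 49.6 and 10.3 CPM in NWD2 replicates 1 and 2, 13.2, 20.6 and 36.8 CPM in NWD1 replicates 1, 2 and 3, against 11.3 and 13.7 CPM in AIN76A replicates 1 and 2. Retnlb, a goblet cell protein that acts on bacteria, had 1.62 and 0.0483 CPM in NWD2, 0.0207, 0.187 and 4.51 CPM in NWD1, against 0.720 and 0.0967 CPM in AIN76A. Both were highest in the libraries with high Reg3b and Reg3g. Among the remaining libraries, Tifa was highest in NWD1 replicate 2, where Reg3b was lowest.

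Further genes of that list did not follow in both libraries. Saa1, an acute-phase protein, had 9.82 and 0.515 CPM in NWD2, 0.0414, 0.345 and 0.863 CPM in NWD1, against 0 and 1.91 CPM in AIN76A. Its log2 fold change was 2.46 for NWD2 over AIN76A (SE 1.78, edgeR adjusted p = 0.996) and 3.84 for NWD2 over NWD1 (SE 1.69, adjusted p = 0.634). Duox2, an oxidase that makes hydrogen peroxide at the epithelial surface, had 9.16 and 8.51 CPM in NWD2, 4.35, 1.04 and 55.2 CPM in NWD1, against 3.11 and 12.6 CPM in AIN76A. Saa1 was highest in NWD2 replicate 1 alone and Duox2 in NWD1 replicate 3 alone. Nos2, the inducible nitric oxide synthase, was highest in AIN76A replicate 2, at 50.1 CPM against at most 7.10 CPM in the other libraries.

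Markers of the cell types that such a sort could hold were also summed in each library, and their part in the Reg3b and Reg3g values was not tested. Paneth cells are the antimicrobial cells of the crypt base. Their 11 markers summed to 11088 and 21787 CPM in NWD2, 20133, 14839 and 19937 CPM in NWD1, against 40400.2 and 27578 CPM in AIN76A. The lowest sum was that of NWD2 replicate 1, where Reg3b and Reg3g were highest, and 10 of the 11 markers had a negative r with Reg3b (median -0.36). By Spearman rho, Ang4, Itln1, Pla2g2a, Nupr1 and Habp2 turned positive, between 0.04 and 0.18. Mmp7, whose r was positive at 0.22, had the highest rho of these markers, 0.57. All 11 had a negative log2 fold change for NWD2 over AIN76A (median -1.01) and for NWD1 over AIN76A (median -0.77), and 7 for NWD2 over NWD1 (median -0.05). The 13 enterocyte markers summed to 49415 and 97216 CPM in NWD2, 51474, 65111 and 46346 CPM in NWD1, against 46265 and 52880.3 CPM in AIN76A. The 8 goblet cell markers summed to 7914 and 9701 CPM in NWD2, 5293, 7572 and 8227 CPM in NWD1, against 19019 and 8848 CPM in AIN76A. Of the enterocyte markers, 8 of 13 had a negative r with Reg3b (median -0.19), and of the goblet cell markers 5 of 8 (median -0.06). By Spearman rho, all 8 goblet cell markers were positive, from 0.07 for Muc2 to 0.61 for Spdef. Fabp1, a fatty acid-binding protein of enterocytes, had 5711 and 14239 CPM in NWD2, 12031, 12756 and 6332 CPM in NWD1, against 8381 and 9560.0 CPM in AIN76A, with an r of -0.92. Rbp2, a retinol-binding protein, had 2019 and 6812 CPM in NWD2, 4725, 4761 and 2765 CPM in NWD1, against 3105 and 4266 CPM in AIN76A, with an r of -0.87. Both were lowest in NWD2 replicate 1 and NWD1 replicate 3, the libraries with high Reg3b and Reg3g.

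Enteroendocrine markers, 8 genes, summed to 452 and 655 CPM in NWD2, 1786, 1956 and 1688 CPM in NWD1, against 1771 and 2200.0 CPM in AIN76A, and so were low in both NWD2 libraries, as Reg4 was. The 6 tuft cell markers summed to 42.1 and 53.5 CPM in NWD2, 196, 81.1 and 143 CPM in NWD1, against 162 and 107 CPM in AIN76A. The 9 crypt stem cell markers summed to 1243 and 539.5 CPM in NWD2, 1029, 415 and 517 CPM in NWD1, against 470.6 and 922 CPM in AIN76A. With Reg3b, r was negative for all 8 enteroendocrine markers (median -0.48) and all 6 tuft cell markers (median -0.29), and positive for 7 of 9 crypt stem cell markers (median 0.33). By Spearman rho, the enteroendocrine and tuft cell markers stayed negative. The stem cell markers Ascl2 and Axin2 turned negative, at -0.07 and -0.14. Leukocyte markers, 11 genes, summed to 9.07 and 13.5 CPM in NWD2, 8.51, 9.53 and 25.5 CPM in NWD1, against 6.39 and 4.57 CPM in AIN76A. None of them was at 0 in any library, the sum was highest in NWD1 replicate 3, and 10 of the 11 had a positive r with Reg3b (median 0.43). Their log2 fold changes were positive in 10 of 11 for NWD2 over AIN76A (median 2.26), in all 11 for NWD1 over AIN76A (median 2.004) and in 6 of 11 for NWD2 over NWD1 (median 0.16). By Spearman rho with Reg3b, the leukocyte markers Ptprc, Gzmb and Fcer1g were negative, each at -0.18. The 7 MHC class II genes, which interferon-gamma is known to induce, summed to 91.1 and 147 CPM in NWD2, 76.6, 174 and 605 CPM in NWD1, against 680.2 and 296 CPM in AIN76A, and 6 of the 7 had a positive r with Reg3b (median 0.06).

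Reg genes are also products of pancreatic acinar cells. Of 17 acinar markers, 9 to 12 were at 0 in each library, and the digestive proteases Prss1, Prss2, Try4, Try5, Cpa1 and Cpb1 and the regulator Ptf1a were at 0 in all 7. The sum was 183 and 377 CPM in NWD2, 359, 275 and 282 CPM in NWD1, against 858 and 481 CPM in AIN76A, and it was mostly Clps, the gene of a lipase cofactor, with 169 to 836 CPM. It was lowest in NWD2 replicate 1. Along the intestine, the 7 genes of the proximal small intestine summed to 1631 and 3102 CPM in NWD2, 2729, 1710.2 and 2130.4 CPM in NWD1, against 2167 and 2017 CPM in AIN76A. The 4 ileum genes summed to 447 and 557 CPM in NWD2, 772, 354 and 570.3 CPM in NWD1, against 703 and 695 CPM in AIN76A. The 6 epithelial markers, of which Epcam was used in the sort, summed to 5882 to 10254 CPM. No listed gene outside the members was called in any of the 3 comparisons by the edgeR quasi-likelihood test, with NWD1 replicate 3 or without it. Both fits called 0 of all genes tested in each comparison, so this absence is no property of the listed genes.

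Without NWD1 replicate 3, which had the highest leukocyte sum and the highest MHC class II sum of its diet, the lists gave the following. For NWD1 over AIN76A, log2 fold changes were positive in 8 of the 13 receptor and relay genes (median 0.12), in 11 of the 18 Toll-like and NOD pathway genes (median 0.03) and in 3 of the 15 microbe-responsive genes (median -0.64). They were positive in none of the 11 Paneth cell markers (median -0.92), in all 11 leukocyte markers (median 1.09) and in none of the 7 MHC class II genes (median -1.54). For NWD2 over NWD1, positive values numbered 6 of 13 in the receptors and relay (median -0.08), 12 of 18 in the Toll-like and NOD pathway (median 0.22) and 13 of 15 in the microbe-responsive genes (median 0.83). There 4 of 11 Paneth cell markers (median -0.11), 9 of 11 leukocyte markers (median 0.86) and 4 of 7 MHC class II genes (median 0.11) were positive. With that library, MHC class II had a median of -0.64 for NWD1 over AIN76A and of -1.21 for NWD2 over NWD1. Of the single genes, the log2 fold change of NWD2 over NWD1 without it was -1.49 for Reg4 (SE 0.44, edgeR adjusted p = 0.604), -2.92 for Il6ra (SE 0.89, adjusted p = 0.605), 2.57 for Tlr5 (SE 1.56, adjusted p = 0.724) and 4.66 for Saa1 (SE 2.02, adjusted p = 0.666).

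Of 7716 named genes with a mean log2 CPM of at least 3, those most like Reg3b over the 7 libraries, by Pearson r of log2(CPM + 1), were Reg3g (0.98), Mbl2 (0.97), Akr1b7 (0.96), Oxct1 (0.96) and Paqr4 (0.96). Mbl2 encodes mannose-binding lectin, a secreted protein that binds sugars on microbes. It had 78.5 and 5.10 CPM in NWD2 replicates 1 and 2, 0.952, 2.47 and 33.6 CPM in NWD1 replicates 1, 2 and 3, against 3.85 and 3.53 CPM in AIN76A replicates 1 and 2. Its mean log2(CPM + 1) was 3.04 over the 7 libraries and 1.97 without NWD2 replicate 1 and NWD1 replicate 3, so it met the level required only through the libraries where Reg3b was high, and its likeness to Reg3b is not independent of that requirement. Akr1b7, a reductase of the aldo-keto family, had 154 and 53.2 CPM in NWD2, 42.9, 34.4 and 117 CPM in NWD1, against 60.2 and 38.7 CPM in AIN76A. Oxct1, an enzyme of ketone body use, had 186 and 81.6 CPM in NWD2, 75.3, 76.5 and 210.1 CPM in NWD1, against 88.8 and 84.2 CPM in AIN76A. Paqr4 ranged only from 94.4 to 154 CPM.

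Without NWD2 replicate 1 and NWD1 replicate 3, r with Reg3b over the remaining 5 libraries was 0.41 for Mbl2 and 0.61 for Akr1b7, and 0.92 for Oxct1 and 0.99 for Paqr4. The values of Mbl2 and Akr1b7 thus rested on those 2 libraries. The genes most like Reg3g were Reg3b, Paqr4 (0.97), Mbl2 (0.97), Akr1b7 (0.96) and Krr1 (0.95), a list that shares Paqr4, Mbl2 and Akr1b7 with that of Reg3b. These genes were picked as the closest of many over few libraries, so their r values are high by choice.

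**Figure D4:**
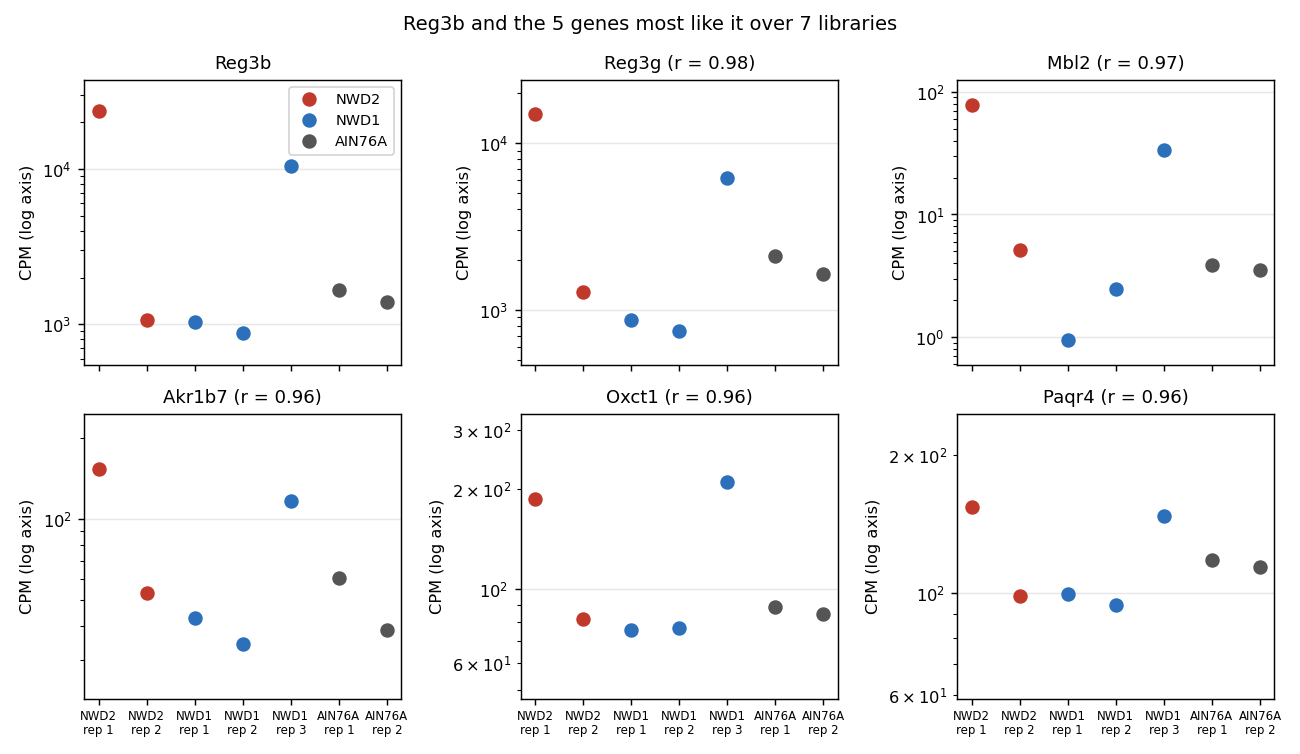
TMM-scaled CPM (log axes, each panel on its own scale) of Reg3b and the 5 genes with the highest Pearson r to it over the 7 libraries, coloured by diet. In each panel NWD2 replicate 1 and NWD1 replicate 3 hold the highest values, at 78.5 and 33.6 CPM for Mbl2 and at 154 and 147 CPM for Paqr4.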

How the data were processed

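Per the labels' protocols, a SMART-Seq v4 kit amplified the RNA of sorted cells and Nextera XT gave paired-end libraries, which hold no strand information. The authors deposited raw counts by Ensembl gene. They also deposited TPM, and the gene lengths behind them are not given in the sources used here. The submitters' processing notes name STAR 2.4.2a, HTSeq 0.6.1, edgeR and build mm9, without roles. Of the TPM columns, 1 matched no sample and was not used, so TPM cover 6 libraries.

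Counts of all 7 libraries entered 1 edgeR 4.0.16 quasi-likelihood fit (R 4.3.3) with diet as the only term, TMM scaling, filterByExpr and robust estimation, which left 4 residual degrees of freedom and a biological coefficient of variation of 0.363. Of 37310 genes, 14626 were tested, and a Benjamini-Hochberg adjusted p under 0.05 was called. SEs are the log2 fold change over the square root of its F. The members and the 17 lists (177 symbols, 176 matched) were chosen with earlier results of these data known, as were the tests and alternatives. Genes named beside the members were the 2 with the largest changes in a list, genes of known role in the pathway, and the 5 most like Reg3b or Reg3g. Il22ra1, Stat3, Il10rb, Myd88, Tirap, Tifa, Retnlb, Duox2, Nos2, Tnf, Fabp1 and Rbp2 were picked from the lists for their role or after their values were seen. Promoters are from RefSeq, aligned with Biopython 1.88. Transcripts are from GENCODE. Alternatives used DESeq2 1.42.0 and limma 3.58.1.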

Additional observations from a re-analysis of the deposited data

How the results depend on the processing

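Each member's log2 fold change was recomputed under 18 alternatives in each of the 3 comparisons. Below, pairs of values are Reg3b then Reg3g. For NWD2 over AIN76A they spanned -0.55 to 3.94 and -0.81 to 3.01, for NWD1 over AIN76A -0.67 to 1.90 and -1.21 to 0.92, and for NWD2 over NWD1 -1.97 to 3.67 and -1.06 to 3.33. The direction turned for NWD2 over AIN76A with i5 index as a term (-0.43, -0.81) and without NWD2 replicate 1 (-0.55, -0.58), and for NWD2 over NWD1 without NWD2 replicate 1 (-1.97, -1.06). For NWD1 over AIN76A it turned on the TPM scale, which lacks NWD1 replicate 3, with log2(TPM + 1), with or without a filter (-0.48, -1.01), and log2(TPM + 0.1) (-0.48, -1.01). It turned there also with i5 index as a term (-0.67, -1.21) and without NWD1 replicate 3 (-0.67, -1.21). These are nearly the same estimate, since NWD1 replicate 3 alone sets the index term and so drops out of that comparison. The sex term likewise drops NWD1 replicate 2, the only female library. The 18 alternatives are therefore not independent of each other.

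Reg1 turned with library size as scaling (-0.034 for NWD2 over AIN76A, -0.24 for NWD2 over NWD1), with i5 index as a term (-0.77, -0.27 and -0.49 for NWD2 over AIN76A, NWD1 over AIN76A and NWD2 over NWD1), with sex as a term (-0.36 for NWD2 over NWD1) and for NWD1 over AIN76A with both pseudocounts on TPM, with or without a filter (-0.12). With single libraries left out, its lowest values were -0.44, -0.45 and -0.36 and its highest 0.89, 0.87 and 0.34, in the same order of comparisons. It was -0.06 without NWD1 replicate 1 and -0.27 without NWD1 replicate 3 for NWD1 over AIN76A, and -0.02 without NWD2 replicate 1 for NWD2 over NWD1. Reg3a for NWD2 over NWD1 was 0.10 with i5 index as a term, 0.35 without NWD1 replicate 1 and 0.20 without NWD2 replicate 1, and with single libraries left out it ran from -0.53 to 0.35. No alternative called Reg1 or Reg3a (lowest adjusted p 0.653). Library size as scaling moved the median of all genes to -0.15, 0.11 and -0.19.

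Over all genes, where the fit as reported called 0 in each comparison, DESeq2 called 52, 1 and 180, and edgeR with no filter on low counts called 190, 85 and 384, among them 2 members, Reg3b and Reg3g, in each NWD2 comparison, which rests on the values that chose them; the cause was not tested. Limma on log2(TPM + 1), with or without a filter, called 0, 1 and 1. An i5 term called 1 for NWD2 over AIN76A and 2 for NWD2 over NWD1. Only the 2 diets compared gave 6 for NWD2 over AIN76A. With single libraries left out, 0 to 1 was called for NWD2 over NWD1.

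With the replicate block, the number of calls was 1 for NWD2 over AIN76A. It gave 2.28 and 1.58 for NWD2 over AIN76A and 2.95 and 2.76 for NWD2 over NWD1. For NWD1 over AIN76A the replicate block gave -0.67, -1.17 and, for Reg1, -0.29; replicate number 3 occurs in NWD1 only, so NWD1 replicate 3 drops out of it. Deviations of same-numbered libraries from their diet means correlated between -0.0002 and 0.26. With 2 libraries in a diet these deviations mirror each other. The values therefore cannot tell whether same-numbered libraries share more than a number. Depth was highest in NWD2 and lowest in NWD1 replicate 3, which still had 156159 Reg3b counts.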
